A study of Homo sapiens with 17 samples.

Results

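CRYAB and HSPA6 are stress-inducible chaperone genes, chosen by symbol because earlier results of these data showed both lower with each MED25 hairpin. They are 2 of the 1400 genes listed in at least 1 of the 4 tables that the authors deposited, and both were found by their symbols. The RNA came from PC3, an established human cell line of prostate cancer, harvested 7 days after viral infection. Early passage cells received a lentivirus with a short hairpin RNA (shRNA) of sequence A or B against MED25, a Mediator complex subunit, with 3 libraries for each. Other cells received a retrovirus with an shRNA of sequence A or B against ETV4, an ETS-family transcription factor, again with 3 libraries for each. The lentiviral control, in 3 libraries, carried a luciferase shRNA and the retroviral control, in 2 libraries, a control shRNA, according to the treatment protocols, whereas the design text speaks of an empty vector. All groups were infected with virus, so no group shows uninfected PC3 cells. Nothing in the labels says whether libraries of a group came from separate cultures.

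CRYAB encodes alpha B-crystallin, a small heat shock protein that forms large oligomers and holds unfolding proteins without using ATP. HSPA6 encodes HSP70B′, an ATP-driven chaperone of the HSP70 family that most human cells make in quantity only under strong stress. Heat shock factors, chiefly HSF1, bind repeats of the letters GAA and TTC upstream of such genes and recruit Mediator and RNA polymerase II. Co-chaperones then direct HSP70: J-domain proteins deliver substrates and BAG-family proteins release ADP.

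The region before the HSPA6 start is shown because it holds a heat shock element, the sequence that heat shock factors recognise. The 250 bases before the start, chr1:161524290.0-161524539.0 on the plus strand of GRCh38.p14 in RefSeq, are printed with a run of 3 alternating TTC and GAA units in capitals.
HSPA6: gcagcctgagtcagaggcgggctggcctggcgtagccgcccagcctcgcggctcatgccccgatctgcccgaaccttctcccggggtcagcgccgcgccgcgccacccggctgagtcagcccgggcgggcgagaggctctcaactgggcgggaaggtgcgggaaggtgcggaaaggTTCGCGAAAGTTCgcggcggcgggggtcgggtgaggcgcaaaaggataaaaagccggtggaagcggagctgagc
The capitals match TTCNNGAANNTTC and span bases 74 to 62 before the start. Either strand was searched, and 155 of 35093 RefSeq windows of the same length (0.442%) held this motif. The element contains overlapping matches to the 2-unit forms TTCNNGAA and GAANNTTC, which 6.62% and 5.78% of the windows held. A separate GAANNTTC match lay 180 to 173 bases before the start. The AP-1 motif TGAGTCA, bound by JUN and FOS proteins, occurred at 244 to 238 and at 139 to 133 bases before the start, and 4.20% of windows held it at least once. The ETS motif CCGGAAGT was not among these 250 letters, and 3.43% of windows held it. A match describes letters and does not show that a protein was bound. Among the 29 genes of a list of heat shock factor targets, 25 had at least 1 such window, and 7 of these held the 3-unit element. This count is per gene, over all its windows, whereas the 0.442% is per window. CRYAB was not searched. HSPA6 was 1 of the 7. The other 6 were HSPA8, HSP90AA1, HSP90AB1, HSPD1, CHORDC1 and SERPINH1, and none of those 6 was in any of the 4 tables. Of all protein-coding genes, 6.14% were in any of these, so 6 genes are too few to give a contrast.

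A stretch of the HSPA6 coding sequence is shown with its closest relatives, because these copies decide how well reads can be assigned to HSPA6. It is the first stretch of 120 coding bases that aligned without a gap to both, bases 22 to 141 counted from the start codon, taken from GENCODE release 29. HSPA7 is a pseudogene near HSPA6 on chromosome 1, and HSPA1A is the major inducible HSP70. Capitals mark bases that differ from HSPA6.
HSPA6: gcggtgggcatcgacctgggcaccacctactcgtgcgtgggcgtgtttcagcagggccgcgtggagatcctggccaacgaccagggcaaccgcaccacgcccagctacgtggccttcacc
HSPA7: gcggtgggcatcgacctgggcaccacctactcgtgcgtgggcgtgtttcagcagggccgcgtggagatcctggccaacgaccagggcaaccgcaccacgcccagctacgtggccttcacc
HSPA1A: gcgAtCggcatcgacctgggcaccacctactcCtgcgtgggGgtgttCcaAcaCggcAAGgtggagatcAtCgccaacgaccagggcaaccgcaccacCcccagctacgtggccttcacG
HSPA7 differed from HSPA6 at 0 of the 120 bases and HSPA1A at 14. Over the whole alignment, HSPA7 was 98.2% identical to the HSPA6 transcript across 1933 bases, HSPA1A 81.1% across 1909 and the constitutive HSP70 gene HSPA8 73.1% across 1831. Of the 2322 windows of 50 bases in the HSPA6 transcript, 1057 (45.5%) also occurred in HSPA7 and none in the transcript of a further gene. Reads from HSPA6 and HSPA7 could therefore be split or dropped in the authors' counting, and the HSPA6 values are uncertain for that reason.

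CRYAB was lower with both MED25 hairpins and was in neither ETV4 table. Every value here is the authors' log2 ratio of knockdown over control, read so that a negative number means less RNA after knockdown. In the authors' deposited table for MED25 shRNA A, CRYAB (ENSG00000109846, chromosome 11) stood at −2.25, or 21.0% of control. The authors' deposited table for MED25 shRNA B gave it −2.12, or 23.0% of control. These were decreases of 4.77-fold and 4.35-fold. When the authors' deposited tables were ranked from the lowest ratio, CRYAB came 5th of 786 for shRNA A and 2nd of 374 for shRNA B. Its neighbours in the authors' deposited table for shRNA A were the antisense gene AC002456.2 at −2.31 and syndecan-1 (SDC1) at −1.88. For shRNA B, the authors' deposited table placed it between the BMP antagonist noggin (NOG) at −2.50 and the immediate early gene ARC at −2.0. In bulk RNA, a loss in every cell and a loss of the cells that express a gene cannot be told apart.

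HSPA6 was likewise lower with both MED25 hairpins and in neither ETV4 table. In the authors' deposited table for MED25 shRNA A, HSPA6 (ENSG00000173110, chromosome 1) stood at −1.66, or 31.7% of control, a 3.16-fold decrease. The authors' deposited table for MED25 shRNA B gave it −1.81, or 28.6% of control, a 3.49-fold decrease. By ratio it came 16th of 786 and 6th of 374 in the authors' deposited tables for shRNA A and B. For shRNA A, the authors' deposited table had the potassium channel gene KCNK15 (−1.69) and the glutathione-degrading enzyme gene CHAC1 (−1.65) on either side of it. For shRNA B, the authors' deposited table had the membrane scaffold gene ANK2 (−1.84) and ESM1 (−1.78), which encodes a secreted proteoglycan, on either side.

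**Figure D1:**
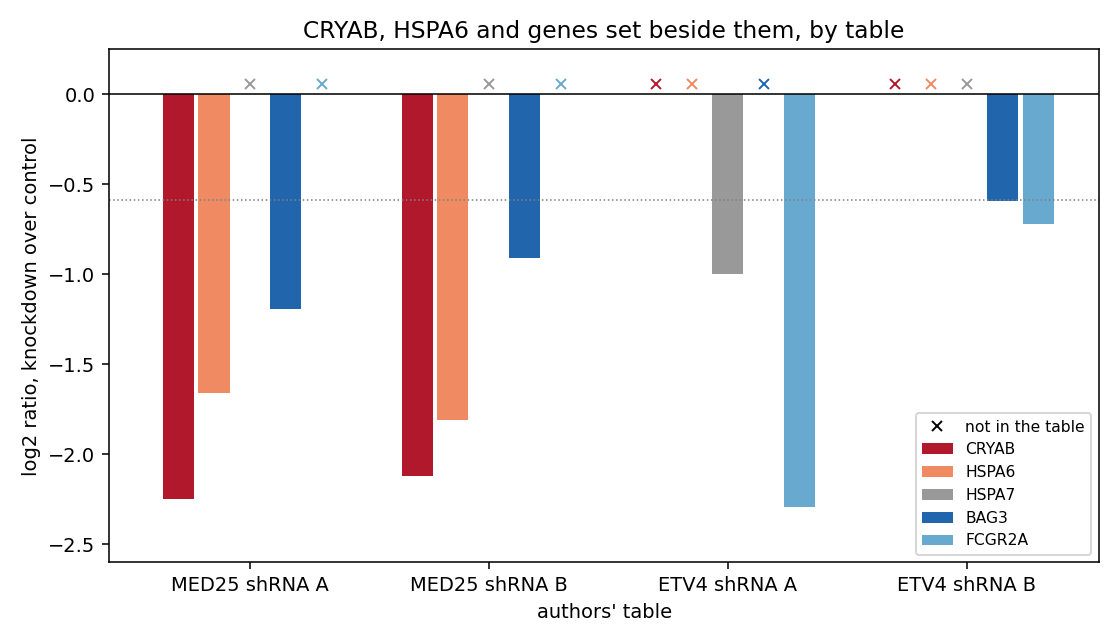
Bars give the authors' log2 ratio of knockdown over control (y axis) in each of the 4 tables (x axis) for CRYAB, HSPA6, HSPA7, BAG3 and FCGR2A. A cross marks a gene that is not in a table, and the dotted line marks the smallest decrease any table lists (1.5-fold). CRYAB and HSPA6 have bars in both MED25 tables, between −2.25 and −1.66, and crosses in both ETV4 tables.

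The tables set limits on what these values show. Each is a single value per gene that the authors made from all libraries of a comparison, with no error, and library-level values were not analysed here. No spread between replicates could be computed, no test was run, and the depth of each library is unknown. Every gene in the 4 tables was lower, by at least 1.5-fold, and the lowest adjusted p score in any of them was 20.1. Genes that rose were not analysed here. CRYAB and HSPA6 may be missing from the ETV4 tables because they changed less, rose, scored lower or were too low to test, which cannot be told apart. Whether the MED25 and ETV4 responses of either gene differ was not tested. The MED25 and ETV4 hairpins also came in different viruses, with different controls and numbers of control libraries. An effect of the target cannot be told apart from these in a difference between their tables. By the authors' deposited tables, MED25 transcript was at 51.6% and 30.5% of control for its hairpins A and B, and ETV4 transcript at 26.1% and 15.8% for its own. Their sign helped to set the direction of the ratios and is no separate check of it.

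Both genes passed a 2-fold decrease with each MED25 hairpin. Of all genes in the authors' deposited table, 24.0% passed this size with shRNA A and 20.1% with shRNA B. With both hairpins together it was 25 of the 153 genes that the MED25 tables have in common, or 16.3%. CRYAB and HSPA6 were chosen on these values, so their place among the 25 is a description. The lentiviral control libraries served both comparisons, so the pair of values for a gene is not independent.

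Between the MED25 hairpins, CRYAB and HSPA6 differed by a little less than the median of the genes in both tables. The hairpins left unlike amounts of MED25 transcript, and whether the values of either gene follow that amount was not tested. The authors' deposited tables put MED25 lower with shRNA B (30.5% of control) than with shRNA A (51.6%). CRYAB was higher with shRNA B, by 0.13 on the log2 scale (shRNA B minus shRNA A). HSPA6 was lower with shRNA B, with a difference of −0.15. Across the 153 genes the median absolute difference between the hairpins was 0.18, and the differences of CRYAB and HSPA6 ranked 58 and 68 from the smallest. None of these differences has an error.

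CRYAB had the larger decrease but HSPA6 the higher score. The authors' second column is headed as an adjusted p, on a scale that the sources used here do not give, and serves here only to rank genes within a table. For MED25 shRNA A the authors' deposited table scored CRYAB at 130 and HSPA6 at 222, ranks 158 and 41 of 786. For shRNA B the authors' deposited table scored CRYAB at 160 and HSPA6 at 281, ranks 55 and 24 of 374. The table medians were 67.6 and 63.4, so both genes stood above them with each hairpin. Both were chosen with results of these data known, so this is a description.

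**Figure D2:**
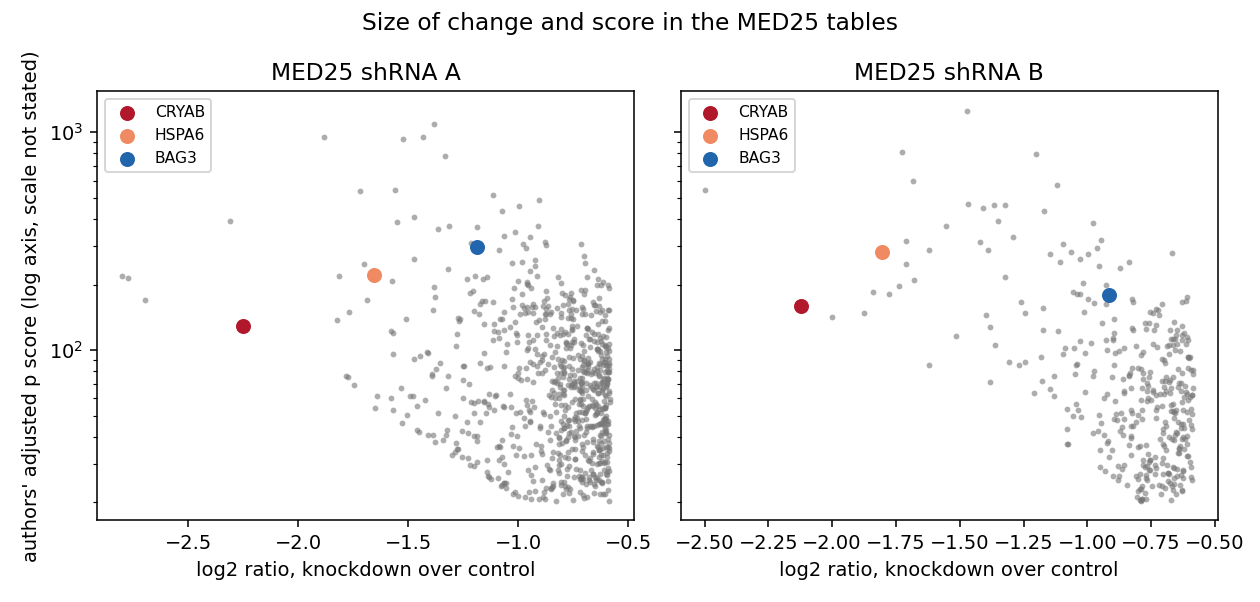
Each point is a gene of the authors' table for MED25 shRNA A (left) or shRNA B (right), with the log2 ratio on the x axis and the adjusted p score on a log y axis. CRYAB lies toward the left with scores of 130 and 160, HSPA6 nearer the middle with 222 and 281, and BAG3 to the right with 296 and 178.

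Genes with the most similar pair of MED25 values were found by the Euclidean distance between log2 ratios with shRNA A and B, over the 153 genes in both tables. For HSPA6 the nearest was KCNK15, at a distance of 0.07, then ANK2 at 0.12, the p75 neurotrophin receptor NGFR at 0.19, SDC1 at 0.24 and the solute carrier SLC35F2 at 0.43. The authors' deposited tables gave NGFR −1.64 and −1.62, and SLC35F2 −1.38 and −1.47, for MED25 shRNA A and B. Neither of these was in an ETV4 table. KCNK15, ANK2 and SDC1 were in both ETV4 tables. For ETV4 shRNA A and B, the authors' deposited tables gave KCNK15 −2.29 and −0.86, ANK2 −1.34 and −1.50, and SDC1 −0.84 and −0.84.

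For CRYAB the nearest genes were farther away: AC002456.2 at 0.42, ARC at 0.46, SDC1 at 0.54, ANK2 at 0.56 and the RNA-binding protein gene IGF2BP1 at 0.57. ARC, in neither ETV4 table, had −2.70 and −2.0 in the authors' deposited tables of MED25 shRNA A and B. For the ETV4 hairpins, the authors' deposited tables had AC002456.2 at −1.85 and −1.56 and IGF2BP1 at −2.04 and −2.48. Of the 25 genes at least 2-fold lower with both MED25 hairpins, 9 were also in an ETV4 table and 16, CRYAB and HSPA6 among them, were in none. Of all 153 genes in both MED25 tables, 28 were in an ETV4 table and 125 in none. Absence from the ETV4 tables was thus common and not particular to CRYAB and HSPA6. By the mean of the MED25 values, CRYAB ranked 3 and HSPA6 ranked 9 of the 153 shared MED25 genes. Among the 125 of these in no ETV4 table they ranked 2 and 3. Both genes were chosen on these values, so the ranks are a description.

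**Figure D3:**
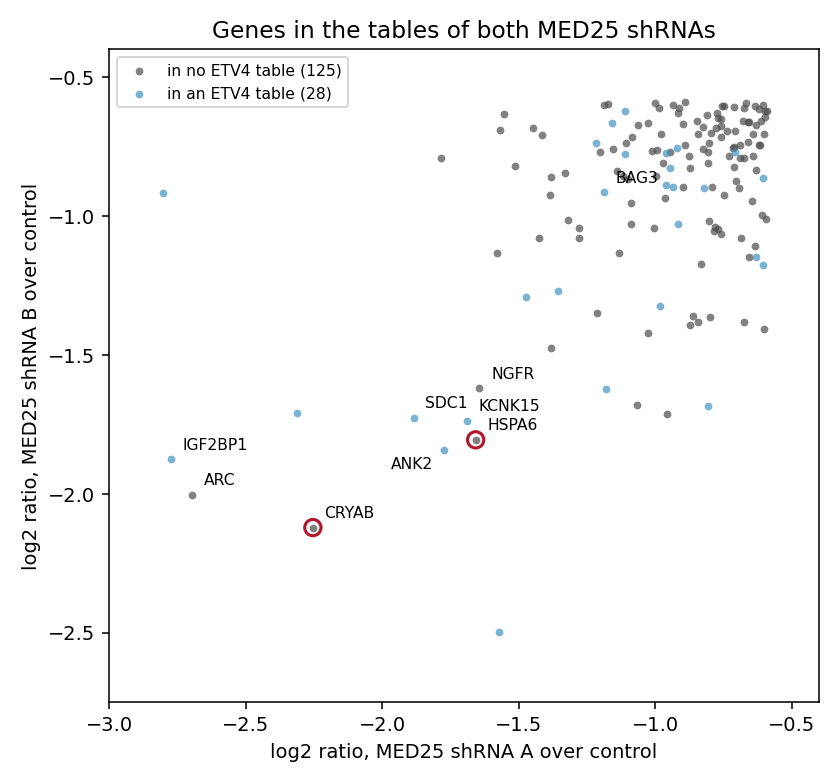
Each point is 1 of the 153 genes in both MED25 tables, with the log2 ratio for shRNA A on the x axis and for shRNA B on the y axis. Blue points (28) are also in an ETV4 table and grey points (125) are not. CRYAB and HSPA6, circled, are grey points at the lower left, and HSPA6 has KCNK15, ANK2 and NGFR as close neighbours.

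In each MED25 table, 3 of the 28 protein-coding genes in the list of heat shock factor targets were present, or 10.7%: CRYAB, HSPA6 and BAG3. Of all protein-coding genes in GENCODE release 29, 3.44% were in the table of MED25 shRNA A and 1.61% in that of shRNA B. Without CRYAB and HSPA6, which were chosen for being there, 1 of 26 members was left (3.85%), close to the 3.44% of shRNA A, and a single gene gives no contrast with the 1.61% of shRNA B. For ETV4, 0 of 28 were in the table of shRNA A and 1 of 28 (3.57%) in that of shRNA B, where 2.17% and 0.456% of coding genes were listed. These shares count members that PC3 cells may not express. The list was written with earlier results of these data known, and no list was tested.

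BAG3, a co-chaperone that links HSP70 to small heat shock proteins and to selective autophagy, was the remaining target in the MED25 tables. The authors' deposited tables gave it −1.19 for shRNA A and −0.91 for shRNA B, or 43.8% and 53.1% of control. For ETV4 shRNA B it had −0.59, or 66.6% of control, the smallest decrease of the 98 genes in the authors' deposited table. Its score in that authors' deposited table was 203, the 12th highest. BAG3 was not in the table of ETV4 shRNA A. Its decreases were smaller than those of CRYAB and HSPA6 with both MED25 hairpins, although the authors' deposited table for shRNA A scored it at 296, above both. The 250 bases before the BAG3 start held none of the 3 heat shock element forms above and 1 match to the AP-1 motif, on the other strand.

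Heat shock factors themselves, HSF1, HSF2, HSF4 and HSF5, were in no table, nor were HSBP1, which encodes an HSF1-binding protein, and its relative HSBP1L1, so 0 of 6 were listed. Of the 10 genes in the list named small heat shock proteins, CRYAB alone was in a table. HSPB1, the most widely expressed of them, and HSPB8, the partner of BAG3, were in none. Of the 17 HSP70 family genes, HSPA6 and HSPA9 were in the table of MED25 shRNA A and HSPA6 alone in that of shRNA B. The authors' deposited table gave HSPA9, the mitochondrial HSP70, −1.02. The stress-inducible HSPA1A and HSPA1B and the constitutive HSPA8 were in no table. Without CRYAB and HSPA6, which were chosen for being there, 0 of 9 genes of the small heat shock list were in a table. Of the coding HSP70 genes, 1 of 15 was left with MED25 shRNA A and 0 of 15 with shRNA B. All coding genes were listed at 3.44% and 1.61% there and at 6.14% in any table. Such small counts give no contrast with these shares.

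Of the co-chaperone lists, at most 2 members were in any 1 table. TRAP1, the mitochondrial HSP90, was the only listed member of 14 HSP90 and co-chaperone genes, and the authors' deposited tables gave it −0.65 and −0.95 for MED25 shRNA A and B. GRPEL2, a mitochondrial nucleotide exchange factor, had −0.73 in the authors' deposited table of MED25 shRNA A. With BAG3 it made 2 of 10 exchange factors there, against 1 of 10 for MED25 shRNA B and for ETV4 shRNA B. All coding genes were listed at 3.44%, 1.61% and 0.456% in these tables, and counts of 1 or 2 among 10 genes give a share little precision. Of the 26 J-domain genes, DNAJC12 alone was listed (3.85%), at −1.07 in the authors' deposited table of ETV4 shRNA A, which listed 2.17% of all coding genes. None of the 10 chaperonin genes was in any table. Of the 10 genes of chaperone-assisted clearance, BAG3 alone was listed. All coding genes were listed at 6.14% in any table, and such small counts give no contrast with these shares.

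HERPUD1, which acts in endoplasmic reticulum protein disposal, was the only 1 of 16 endoplasmic reticulum chaperone genes in any table, at −0.67 in the authors' deposited table of MED25 shRNA A. Of 16 oxidative and metal stress genes, 3 were listed: 1 in each table (6.25%) except that of ETV4 shRNA A, which had 2 (12.5%). All coding genes were listed at 3.44% and 1.61% for MED25 shRNA A and B, and at 2.17% and 0.456% for ETV4 shRNA A and B. Counts of 1 or 2 among 16 genes give a share little precision, and these shares were not tested. The authors' deposited tables gave the cystine transporter SLC7A11 −1.58 for MED25 shRNA A, and −1.23 and −0.62 for ETV4 shRNA A and B. Metallothionein MT2A had −0.83 for MED25 shRNA B, and the zinc exporter SLC30A1 −0.90 for ETV4 shRNA A, by the authors' deposited tables. In all, 12 of the 130 distinct genes over the 11 lists were in a table: 9 in a MED25 table, 4 of them in both, and 5 in an ETV4 table. Of the 129 coding genes among them, 11 were listed (8.53%), or 9 of 127 (7.09%) without CRYAB and HSPA6, against 6.14% of all coding genes. Among those of the 12 that each MED25 table listed, CRYAB and HSPA6 had the lowest ratios. They were chosen on these values, so this is a description.

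**Figure D4:**
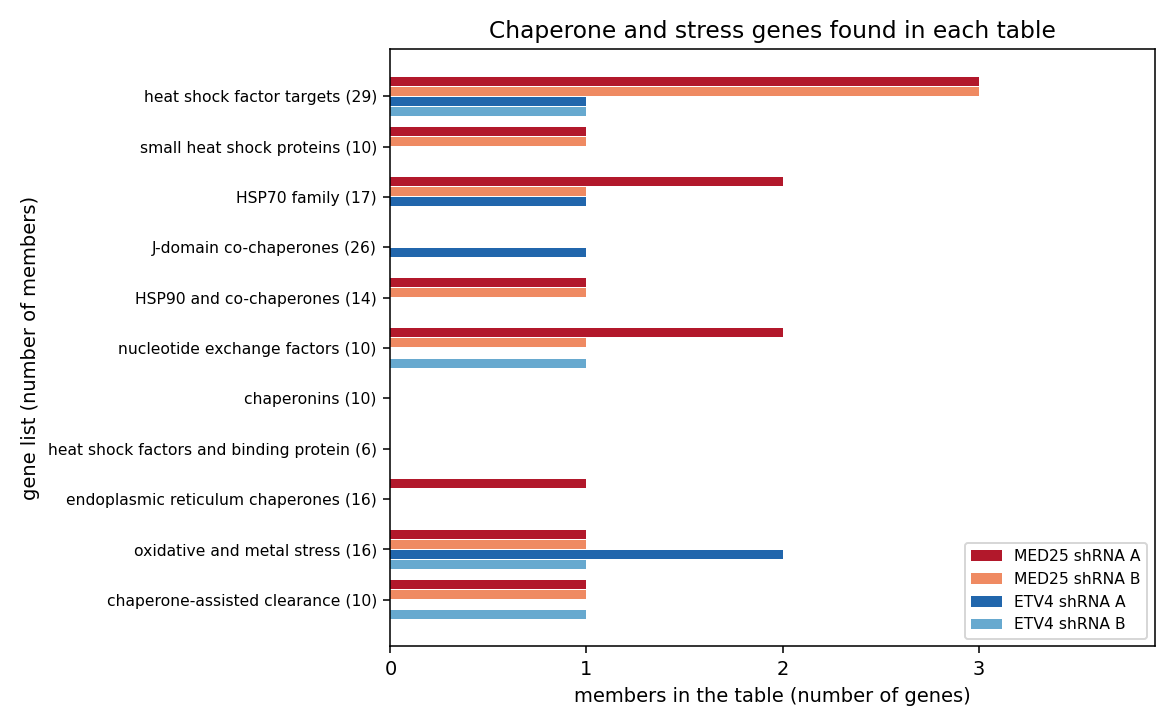
Bars give how many members of each gene list (y axis, list size in brackets) are in each of the 4 tables (x axis, number of genes). The heat shock factor targets have 3 members in each MED25 table and 1 in each ETV4 table, and chaperonins and heat shock factors have none.

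At the HSPA6 locus, different genes were listed for the 2 targets, which also differed in virus and control. FCGR2A, an Fc receptor gene on the same strand and the nearest protein-coding gene upstream of HSPA6 in RefSeq, had −2.29 and −0.72 in the authors' deposited tables of ETV4 shRNA A and B. It was in neither MED25 table, whereas HSPA6 was in both and in no ETV4 table. HSPA7, the near-identical copy of HSPA6, had −1.0, or 50% of control, in the authors' deposited table of ETV4 shRNA A. Its score of 36.0 ranked 367 of 495 in the authors' deposited table. FCGR2C, the copy of FCGR2A beside HSPA7 and named after its value was seen, had −0.76 in the authors' deposited table of ETV4 shRNA A. Its score of 20.6 ranked 485 of 495 there. Thus 3 genes of this duplicated locus were listed with ETV4 shRNA A, and HSPA6 was not among them. Of these 3, FCGR2A alone was listed with ETV4 shRNA B. Of all coding genes, 2.17% were in the table of ETV4 shRNA A. That share covers FCGR2A alone, since HSPA7 and FCGR2C are annotated as pseudogenes. The count at this locus was not tested. Since 45.5% of HSPA6 windows of 50 bases are shared with HSPA7, the split between these copies is uncertain in every table, and its part in the HSPA6 and HSPA7 values was not tested.

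At the CRYAB locus, the nearest genes were in no table. HSPB2, another small heat shock protein gene, lies within the annotated span of CRYAB on the opposite strand, and C11orf52 overlaps it in part. Neither was in any table, nor was any other of the 5 RefSeq genes on either side. Of all protein-coding genes, 6.14% were in any table, and some of these neighbours are not protein-coding. So few genes give no contrast with that share. Of the 3239 distinct windows of 50 bases in the 16 annotated CRYAB transcripts, 434 (13.4%) also occurred in another gene, all of them on the opposite strand. The sources used here do not say whether the authors' counting used strand, so reads in that overlap could have been assigned to either gene. The gene DLAT, a subunit of the pyruvate dehydrogenase complex lying 6 places away and named after its value was seen, had −0.60 in the authors' deposited table of MED25 shRNA A.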

How the data were processed

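RNA sequencing of PC3 cells was described by 17 libraries in 6 groups, and grouping followed the sample titles. The submitters' processing notes name Novoalign 3.08.02 and the build hg19. The sources used here do not give how reads were counted, scaled, tested and filtered. The authors deposited 4 tables of their own comparisons, 1 per shRNA, each with a log2 ratio and an adjusted p score per gene, per the file headers. The headers name a pair of group numbers, read as first over second. The number found in both tables of a target was taken as the control, so MED25 ratios were turned round.

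CRYAB, HSPA6 and the gene lists were chosen with earlier results of these data known. Named genes are the targets, both members, listed genes of the fixed lists (up to 8 per list, largest change first), the 5 nearest genes, rank neighbours and chromosome neighbours. Genes were matched by Ensembl identifier, 1350 of 1400 to GENCODE release 29 and all 130 list genes to an identifier. That annotation and RefSeq are on GRCh38, a later build than hg19, and served for names, order, gene type and sequence. Promoter windows were searched on both strands, and transcripts were compared by exact windows of 50 bases and with blastn 2.17.0+ (e-value 1e-20). Motif and window searches were tested on simulated sequences. Python 3.11.15, pandas 2.3.3 and numpy 2.4.6 were used. Alternatives were a 2-fold minimum, a score of at least 50, coding genes alone, the deposited direction, the 300-base promoter window and, added after seeing the data, windows of 100 bases.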

Additional observations from a re-analysis of the deposited data

How the results depend on the processing

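The direction rests on how the headers were read: as deposited, CRYAB stood at 2.25 and 2.12, and HSPA6 at 1.66 and 1.81, with MED25 shRNA A and B. Both genes were in both MED25 tables and in neither ETV4 table with a 2-fold minimum and with a score of at least 50. This outcome was fixed in advance. A stricter minimum cannot add a gene, and the MED25 values of both genes already passed each minimum. Of 44 counts of list members, 21 were 0 and could not fall. Of the other 23, the 2-fold minimum lowered 13, among them the heat shock factor targets with MED25 shRNA B, from 3 to 2 (BAG3 was lost). The score minimum lowered 4 of the 23, among them those that held HSPA7 with ETV4 shRNA A, whose score was 36.0. With windows of 100 bases, chosen after seeing the data, the share of HSPA6 found in HSPA7 was 27.6% and that of CRYAB on the other strand 7.55%. No paired analysis was possible because the tables hold no library-level values, and leaving out replicates was not run for the same reason. The depth of the libraries is unknown.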
